A study of Homo sapiens with 4 samples.

Results

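The H3K4me3 peaks at the start sites of 8 genes of the NF-kB response were described in MDA-MB-231 cells with a knockout of ARID1A and in control cells of the same line. The genes were the inhibitors NFKBIA and TNFAIP3 and the cytokine and chemokine genes IL6, LIF, CXCL8, CXCL1, IL1B and CSF2. A peak was taken when it shared at least 1 bp with the window from 2 kb below to 2 kb above the hg19 start site of a gene. This gave 11 of the 60265 peaks of both lists, of which 3 were among the 23588 knockout peaks and 8 among the 36677 control peaks. Given the genes, only position chose the peaks, and no measured value was used. The genes and lists themselves were chosen with earlier results of these data known. H3K4me3, trimethylation of lysine 4 of histone H3, is found mainly at active promoters, and MDA-MB-231 is an established line of triple-negative breast cancer cells. ARID1A belongs to the SWI/SNF complexes, which move and evict nucleosomes, and the control cells carry the genotype label control. There were 4 libraries, with 1 H3K4me3 immunoprecipitate (IP) and 1 input for each genotype. No treatment or cytokine stimulation is given for either genotype.

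NF-kB dimers are held in the cytoplasm by IkB proteins until a signal through the IkB kinase leads to the breakdown of the inhibitor. The freed dimers enter the nucleus and switch on inflammatory cytokine and chemokine genes. They also switch on the genes of their own inhibitors, IkB alpha (NFKBIA) and the ubiquitin-editing protein A20 (TNFAIP3), which ends the response. MDA-MB-231 cells are known for constant NF-kB activity and for secretion of the cytokines encoded by IL6 and CXCL8.

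The start regions of NFKBIA and CSF2, the genes with a knockout peak in the window, and of TNFAIP3 and CXCL8, which had a control peak alone, are printed here to show the sequence around starts of either kind. Each runs from 250 bases before to 50 bases after the start that RefSeq gives in the GRCh38.p14 build, 5′ to 3′ on the strand of the gene, and capitals mark matches to the NF-kB site consensus on either strand. The peaks are in hg19, so the place of these starts within the peaks was not computed. The NFKBIA stretch is chr14:35404700-35404999 on the minus strand, and that of CSF2 is chr5:132073539-132073838 on the plus strand. The TNFAIP3 stretch is chr6:137867009-137867308 on the plus strand, and that of CXCL8 is chr4:73740319-73740618 on the plus strand.
NFKBIA: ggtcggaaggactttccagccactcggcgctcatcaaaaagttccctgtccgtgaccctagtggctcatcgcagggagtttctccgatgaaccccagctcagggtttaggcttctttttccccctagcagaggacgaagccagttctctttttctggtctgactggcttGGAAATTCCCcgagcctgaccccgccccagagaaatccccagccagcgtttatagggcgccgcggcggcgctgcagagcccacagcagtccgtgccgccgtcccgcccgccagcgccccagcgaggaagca
CSF2: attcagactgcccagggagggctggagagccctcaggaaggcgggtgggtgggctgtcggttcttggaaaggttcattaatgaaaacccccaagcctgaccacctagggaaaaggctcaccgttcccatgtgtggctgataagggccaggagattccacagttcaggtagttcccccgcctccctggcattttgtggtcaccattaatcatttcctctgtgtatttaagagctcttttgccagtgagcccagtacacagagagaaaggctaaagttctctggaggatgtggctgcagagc
TNFAIP3: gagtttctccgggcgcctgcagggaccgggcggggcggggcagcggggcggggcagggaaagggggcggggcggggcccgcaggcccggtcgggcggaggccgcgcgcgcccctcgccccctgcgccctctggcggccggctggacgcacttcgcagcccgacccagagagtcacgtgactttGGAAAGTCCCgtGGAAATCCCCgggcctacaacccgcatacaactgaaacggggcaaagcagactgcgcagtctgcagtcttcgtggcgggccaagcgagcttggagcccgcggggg
CXCL8: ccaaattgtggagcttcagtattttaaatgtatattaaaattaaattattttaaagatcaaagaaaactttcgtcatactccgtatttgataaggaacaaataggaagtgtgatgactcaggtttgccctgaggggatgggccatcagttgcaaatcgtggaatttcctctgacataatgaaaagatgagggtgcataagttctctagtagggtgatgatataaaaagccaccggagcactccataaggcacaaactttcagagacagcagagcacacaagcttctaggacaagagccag

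A RefSeq promoter entry was found for 7 of the 8 genes, all but LIF. The NF-kB consensus matched in 4 of the 7, against 11.3% of the 35114 promoters of the same length in the table. NFKBIA held 1 match, beginning 81 bases before the start, and IL6 held 1, beginning 73 bases before it. TNFAIP3 held 2 matches, at 67 and 55 bases before the start, and in CXCL1 a near-palindromic stretch gave 2 overlapping matches on opposite strands, at 79 and 78 bases before it. The consensus searched was GGGRNNYYCC, where R is A or G, Y is C or T and N is any base. It was not in the CXCL8, IL1B and CSF2 stretches. A stretch that differs from it in any letter was neither counted nor marked, so these stretches may still hold an NF-kB site. The AP-1 motif TGANTCA, searched on both strands, was found in the CXCL8 stretch alone of the 7, 137 bases before the start, and in 7.71% of all promoters. The TATA motif TATAAA, on either strand, was in CXCL8 and NFKBIA, and in 11.5% of all promoters. The stretches differed widely in CpG dinucleotides, with 35 in TNFAIP3, 22 each in NFKBIA and CXCL1, 7 in IL6, 4 each in CSF2 and CXCL8 and 2 in IL1B, against a median of 14 over all promoters. The genes with a knockout peak in the window had 22 and 4 CpG, inside the range of the others.

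Several facts of the libraries bear on every value below. The knockout IP held 13391724 tags and the control IP 27748061, and 99.4% of the knockout and 62.1% of the control IP tags lay in peaks. The median peak was 300 bp wide with 419 tags in the knockout list and 2968 bp wide with 168 tags in the control list, so tags per peak and per kb are on different footings in the lists. Inside the knockout file the library is called K6, which no label mentions, 3 of the 4 cell line labels deviate from MDA-MB-231 in their last digit, and the inputs carry IgG as antibody label. The labels do not say whether the knockout is 1 clone. With 1 IP library per genotype no difference between genotypes could be tested, all intervals cover counting error only, and copies of 1 fragment count as separate tags. Genotype, clone, culture and library cannot be told apart. Marker genes of the cell line were not analysed here.

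A peak lay in the window at 2 of the 8 genes in knockout cells, CSF2 and NFKBIA, and at all 8 in control cells. With a window of 5 kb or of 10 kb the knockout count was 5 of 8, with IL6, LIF and IL1B added, and the control count stayed at 8. As background, 28.4% of all control peaks had a knockout peak within 2 kb of their summit. This share was measured from control summits and not from start sites, and it was not matched to the control tags of the 8 genes. No such share was computed for 5 kb or 10 kb, nor the share of all start sites with a control peak. The counts of 5 and of 8 therefore have no background beside them. The control domains were strong and wide among those of their list. Each had more tags and a greater width than the median control peak, with a median of 1000 tags and 7058 bp over the 8 genes. All 8 spanned at least 4 kb, as did 35.1% of all control peaks. At 7 of the 8 genes, all but IL1B, the control peak at the gene held the most tags of any control peak within 100 kb. Measured from the summit, the same was found for 25.6% of all control peaks, and for a mean of 48.1% in the tag classes, defined below, to which the 8 genes belonged.

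**Figure D1:**
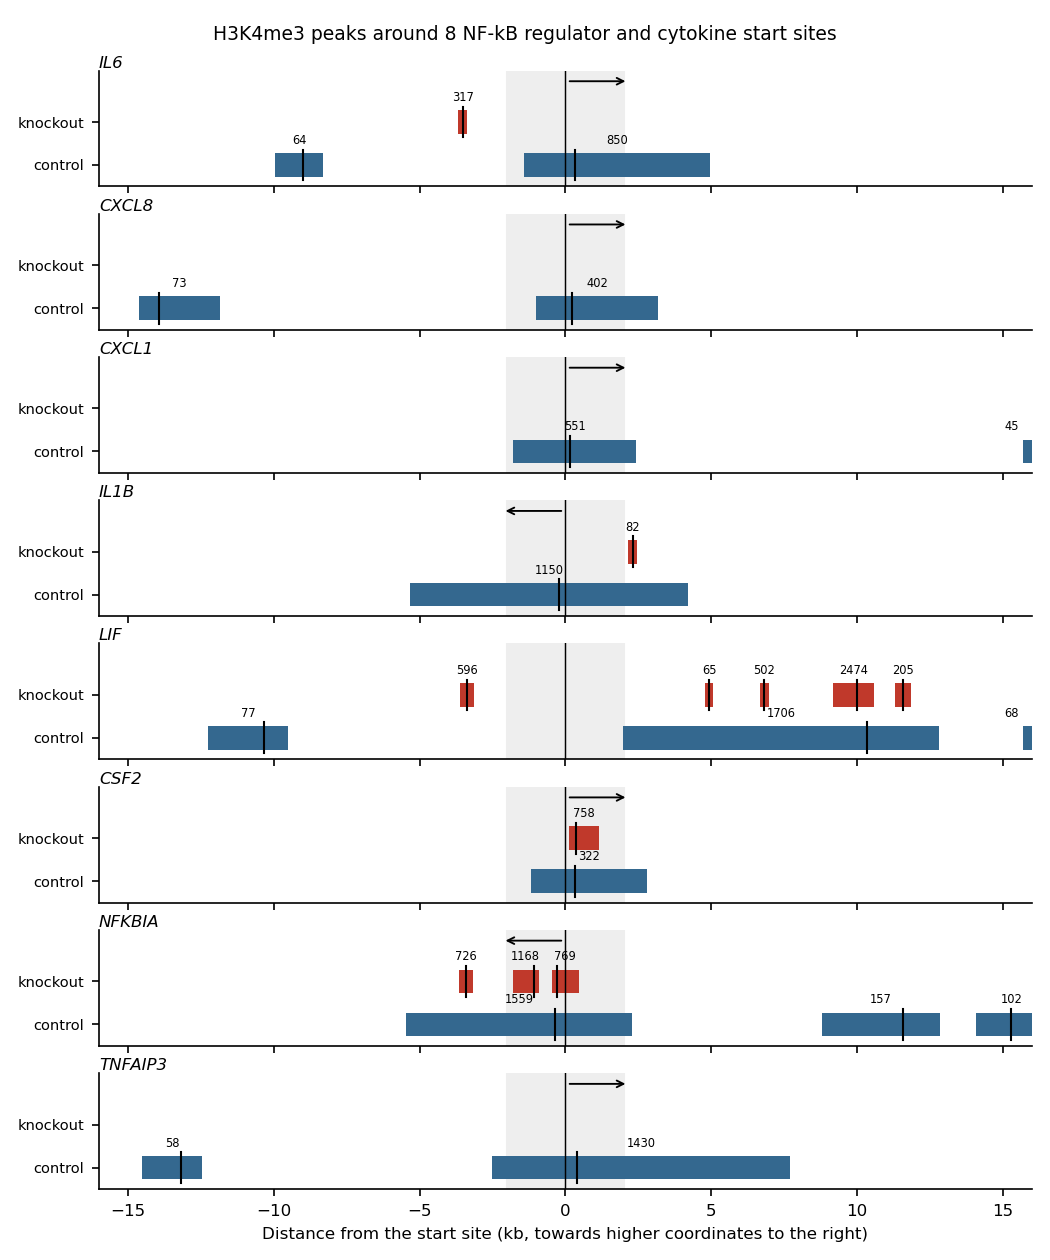
Map of the knockout peaks (red, upper row of each panel) and control peaks (blue, lower row) around the 8 start sites, with distance in kb on the x axis. Black ticks mark summits, numbers are the tags of each peak, grey marks the 2 kb window on either side, and arrows give the direction of transcription where RefSeq gave a strand. Knockout peaks met the window at CSF2 and NFKBIA, and control domains met it at all 8 genes.

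Read more broadly, 4 of the 8 control domains held a knockout peak somewhere along their length, those of NFKBIA, LIF, IL1B and CSF2. Of all control peaks, 28.4% held a knockout peak, and the share was higher for control peaks with more tags. The control list was ranked by tags and split into 10 classes of equal size, from class 1 with the fewest to class 10 with the most. CXCL8 and CSF2 were in class 7, in which 29.5% of control peaks held a knockout peak, and CXCL1 was in class 8, with 53.7%. IL6 and IL1B were in class 9, with 70.0%, and LIF, NFKBIA and TNFAIP3 in class 10, with 84.2%. IL6, at 850 tags, stood on the limit between classes 8 and 9, and list order placed it in class 9. With IL6 in class 9, the mean of these class shares over the 8 genes was 63.2%, against 50% for the genes themselves. Measured from the control summit, a knockout peak lay within 2 kb at 3 of the 8 genes, LIF, CSF2 and NFKBIA, against the same 28.4%. That share covers all control peaks and was not computed by class for the summit measure. The control summit counted for LIF lay 10329 bp from its start site. The count of 4 in 8 lay between the share of all control peaks and that of control peaks of the same classes. Domains with 2 or more knockout peaks were those of LIF and NFKBIA, 2 of 8, against 7.8% of all control peaks. Both domains were in class 10, and the share with 2 or more was not computed by class or width.

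**Figure D2:**
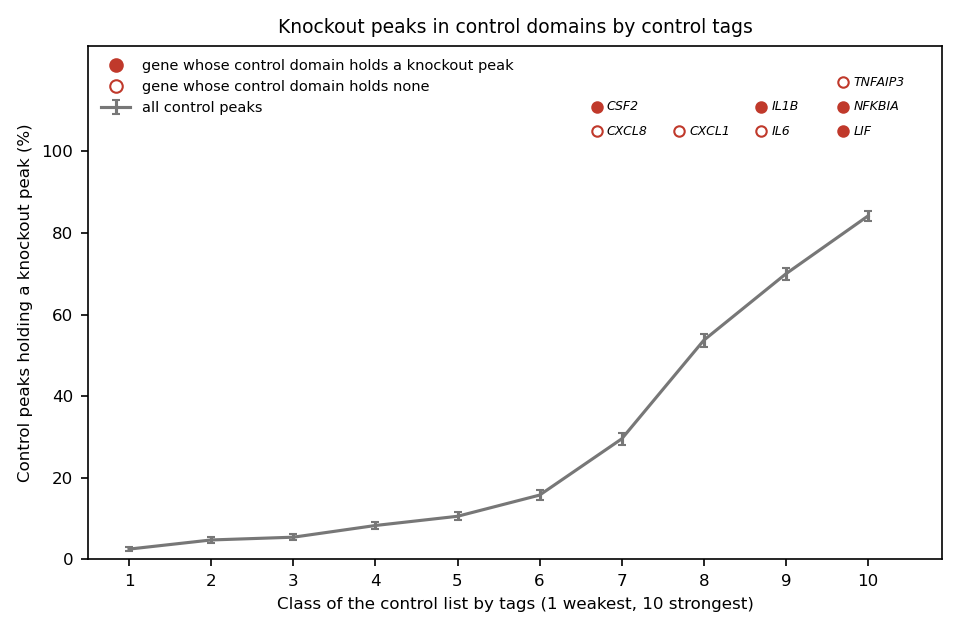
Share of control peaks that held a knockout peak (y axis, percent) in each of 10 classes of the control list by tags (x axis), with exact Clopper-Pearson 95% intervals. Circles above the curve place each gene in the class of its control domain, filled where that domain held a knockout peak. CSF2, in class 7 at 29.5%, held one, and TNFAIP3, in class 10 at 84.2%, held none.

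NFKBIA, which encodes the inhibitor IkB alpha, carried the mark in both genotypes. Knockout cells had 2 peaks in the window on chromosome 14. The first ran from 35872144 to 35873043 with 1168 tags (exact Poisson 95% interval 1102 to 1237), and the second from 35873483 to 35874426 with 769 tags (716 to 825). Control cells had 1 domain from 35868504 to 35876241, 7738 bp wide, with 1559 tags (1483 to 1638). The second knockout peak covered the start site, and its summit, 297 bp downstream, was 74 bp from the control summit at 371 bp downstream. The first had its summit 1066 bp downstream. Another knockout peak, with 726 tags, lay outside the window but inside the control domain, with its summit 3411 bp downstream. All 3 summits thus lay downstream, although the second peak reached 466 bp upstream and 477 bp downstream of the start site. Together the 3 knockout peaks covered 29.9% of the control domain.

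The knockout peaks of NFKBIA were wide for their list. At 900 and 944 bp they were wider than 94.7% and 95.3% of knockout peaks. Their densities were 1298 and 815 tags per kb, against a median of 1094 tags per kb over all knockout peaks. The control domain had 201 tags per kb, the densest of the 8 control domains and denser than 90.0% of all control peaks. With both knockout peaks of the window summed to 1937 tags, the log2 of knockout over control tags was 0.77 (interval 0.67 to 0.87) once centred on the median of the 7552 pairs in which 1 knockout peak met 1 control peak. NFKBIA is not such a pair, so this value has no rank among them. With the knockout peak nearest the start site alone, the centred value was -0.56, and per kb of peak width it was -0.68. The sign of the NFKBIA ratio therefore depended on which peaks and which scale were taken.

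TNFAIP3, which encodes A20, had a wide control domain and no knockout peak near it. No knockout peak met its window. The nearest knockout peak ended 36366 bp below the start site on chromosome 6 and held 687 tags. In control cells the domain ran from 138185797 to 138196026, 10230 bp wide, with 1430 tags (1357 to 1506) and 140 tags per kb. The authors' fold enrichment of this domain, 152.43, was the highest of the 8 control peaks and above that of 95.7% of their list. In class 10, 84.2% of control peaks held a knockout peak, and 7.25% were at least as far from one as the TNFAIP3 domain was, at 33838 bp. The 3 knockout peaks within 100 kb of the gene, with 1300, 229 and 687 tags, were all on the upstream side, between 36366 and 69336 bp away. The other 3 control peaks within 100 kb held 58 to 118 tags each. The counting intervals of the control tags of NFKBIA and TNFAIP3 overlapped between 1483 and 1506 tags, while knockout peaks were listed at NFKBIA alone.

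IL6 encodes interleukin 6, an inflammatory cytokine. No knockout peak met the window or the control domain. The nearest one, 300 bp wide with 317 tags (283 to 354), had its summit 3531 bp upstream of the start site on chromosome 7, and it ended 1961 bp before the control domain began. The control domain ran from 22765345 to 22771722 with 850 tags (794 to 909). It reached 1421 bp upstream and 4956 bp downstream, with its summit 326 bp downstream. Class 8 ended and class 9 began at 850 tags, so list order among ties, and not tags, placed it in class 9. In class 9, 70.0% of control peaks held a knockout peak, and in class 8, 53.7%.

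LIF encodes leukemia inhibitory factor, a cytokine of the interleukin 6 family. Its start site at 30642840 on chromosome 22 lay inside no peak of either list, and it was the only 1 of the 8 start sites outside a control domain. The control domain counted for it, from 30644824 to 30655659, began 1984 bp above the start site, just inside the window, and had its summit 10329 bp away. On the other side of the window limit, the nearest knockout peak of any of the 6 genes without one was that of IL1B, 2152 bp from its start site. OSM, which encodes oncostatin M of the same cytokine family, is the next protein-coding gene above LIF in RefSeq. Whether the domain belongs to LIF or to a neighbour was not analysed here.

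The domain beside LIF held the most knockout tags of the 8 domains. It had 4 knockout peaks with 65, 502, 2474 and 205 tags, and 1706 control tags (1626 to 1789). The peak of 2474 tags (2377 to 2573) ran from 30652031 to 30653426, had more tags than 98.8% of knockout peaks, and its summit was 324 bp from the control summit. A further knockout peak with 596 tags (549 to 646) ran from 30639234 to 30639699, on the other side of the start site, where the nearest control peak ended 9507 bp from the start site. The strongest summit lay 10005 bp from the LIF start site in knockout cells and 10329 bp in control cells, and neither list had a peak over the start site.

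CXCL8 and CXCL1 encode the neutrophil-attracting chemokines interleukin 8 and GRO alpha, and their start sites lie 128886 bp apart on chromosome 4. Neither had a knockout peak in its window or its control domain. The knockout peak nearest to both was the same one, a 300 bp peak with 41 tags (29 to 56) from 74567866 to 74568165. It ended 38058 bp below CXCL8 and 166944 bp below CXCL1, and no knockout peak lay between the genes. Of control peaks in class 8, that of CXCL1, 3.57% were at least as far from a knockout peak, and for CXCL8 in class 7 the share was 27.9%. No knockout peak lay within 100 kb of the CXCL1 start site, a state shared by 15.2% of control peaks measured from their summits.

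In control cells both chemokine genes carried a domain of similar width. That of CXCL8 ran from 74605227 to 74609405 with 402 tags (364 to 443) and 96.2 tags per kb (87.0 to 106). That of CXCL1 ran from 74733309 to 74737535 with 551 tags (506 to 599) and 130 tags per kb (120 to 142). The control list had no peak between these domains, and RefSeq (GRCh38.p14) places CXCL6 and PF4V1, a chemokine gene and a platelet factor 4 variant gene, between them. The remaining control peaks within 100 kb of either gene held 45 to 187 tags.

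IL1B encodes interleukin 1 beta. Knockout cells had no peak in the window and 1 just beyond it, from 113596508 to 113596813 on chromosome 2, with 82 tags (65 to 102). Of all knockout peaks, 12.4% had fewer tags. It lay inside the control domain, 2305 bp upstream of the start site. Control cells had a domain of 9527 bp from 113589039 to 113598565 with 1150 tags (1084 to 1218). The control summit, 230 bp downstream of the start site, was 2535 bp from that of the knockout peak, and the knockout peak covered 3.21% of the domain. The log2 of knockout over control tags in the domain was -3.46 (-3.82 to -3.15), centred on the median of the 10427 control domains that held a knockout peak, and 4.45% of these were lower. Centred values of -1 or less were found for 26.7% of these domains.

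CSF2 encodes the granulocyte-macrophage colony-stimulating factor. Knockout cells had 1 peak, from 131409610 to 131410621 on chromosome 5, with 758 tags (705 to 814). It was 1012 bp wide, wider than 96.4% of knockout peaks, and its 749 tags per kb were denser than 35.8% of them. Control cells had a domain from 131408291 to 131412291 with 322 tags (288 to 359), the fewest of the 8, and with a fold enrichment of 18.18, lower than that of the other 7. The summits, 360 bp downstream of the start in knockout and 322 bp in control cells, were 38 bp apart. The knockout peak lay wholly inside the control domain and covered 25.3% of it.

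The tags at CSF2 were more numerous in knockout cells in raw number, although the knockout IP was the smaller library. The centred log2 of knockout over control tags was 1.69 (1.50 to 1.88), above 82.6% of the 7552 pairs, and values of 1 or more were found for 28.7% of pairs. Divided by the library totals it was 2.28, and per kb of peak width it was 0.15. A value as high as that of CSF2 or higher was found for 17.4% of pairs. These shares were over pairs of all control strengths and were not matched to the low control tags of CSF2.

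Summed over whole control domains, 3 of the 4 genes with knockout peaks had ratios above the median of such domains and IL1B one below it. LIF had 3246 knockout and 1706 control tags, a centred log2 ratio of 1.26 (1.18 to 1.35). NFKBIA had 2663 knockout and 1559 control tags, with a ratio of 1.10 (1.01 to 1.20). CSF2, with 758 knockout and 322 control tags, had a ratio of 1.57 (1.38 to 1.76). In all 3 the knockout tags outnumbered the control tags even before centring, but the window ratio of NFKBIA per kb had the opposite sign, as given above. IL1B had 82 knockout and 1150 control tags and the ratio of -3.46 given above. The sums covered 4 knockout peaks at LIF, 3 at NFKBIA and 1 each at CSF2 and IL1B. The median used for centring was over domains with any number of knockout peaks. Values of 1 or more were thus found at 3 of the 4 genes whose domain held a knockout peak, against 25.1% of the 10427 such domains. Over all control peaks, with or without a knockout peak, the counts were 3 of the 8 genes and 7.14%. Both gene counts include the domain beside LIF, which began 1984 bp from the LIF start site and may belong to a neighbour. No test was made of either count. Neither share was matched to the tag classes of the 8 genes or to the number of knockout peaks summed. In those classes more control peaks held a knockout peak than in the whole list, which bears on the share over all control peaks. The counts therefore cannot be read as an excess at these genes.

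**Figure D3:**
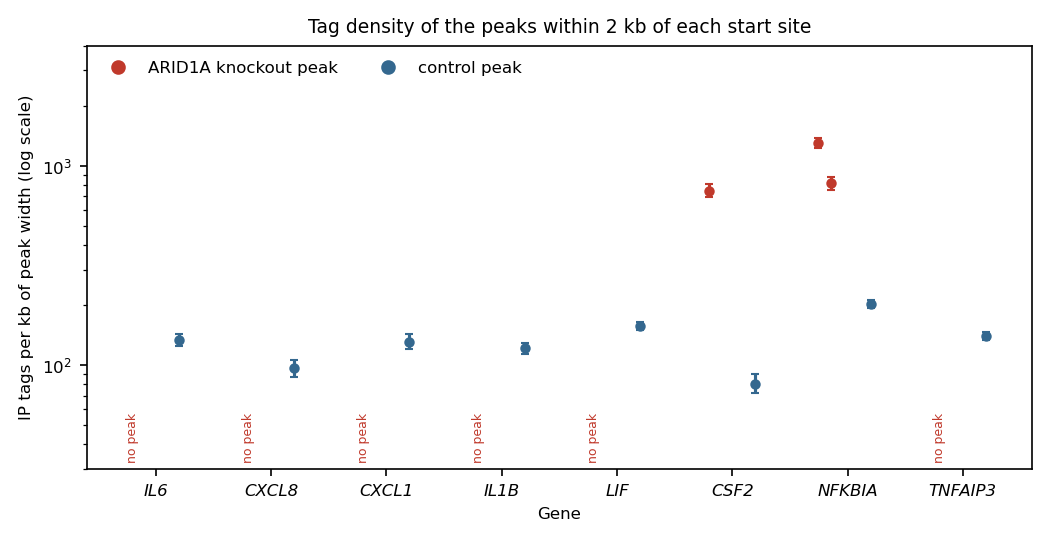
Tags per kb of peak width (y axis, log scale) for each peak in the window of each gene, with knockout peaks in red to the left and control peaks in blue to the right. Bars are exact Poisson 95% intervals, and "no peak" marks genes without a listed knockout peak. The 3 knockout peaks had 749 to 1298 tags per kb and the 8 control peaks 80.5 to 201. The medians of the whole lists were 1094 for knockout and 56.5 for control peaks, so heights are not comparable between the lists.

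Per kb of peak width, the order in control cells was NFKBIA at 201 (192 to 212), LIF at 157 (150 to 165), TNFAIP3 at 140 (133 to 147), IL6 at 133 (124 to 143), CXCL1 at 130 (120 to 142), IL1B at 121 (114 to 128), CXCL8 at 96.2 (87.0 to 106) and CSF2 at 80.5 (71.9 to 89.8) tags per kb. The counting intervals of neighbours in this order overlapped from TNFAIP3 to IL1B and between CXCL8 and CSF2. They were apart between NFKBIA and LIF, LIF and TNFAIP3, and IL1B and CXCL8. The genes with a knockout peak in the window stood at the top and the bottom of this order.

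The position of the control mark relative to transcription could be given for the 7 genes with a strand in RefSeq. The share of other promoters with the same position was not computed, so the counts cannot be read as particular to these genes. At all 7 the control summit lay downstream of the start site, at 163 bp in CXCL1, 220 bp in CXCL8, 230 bp in IL1B, 322 bp in CSF2, 326 bp in IL6, 371 bp in NFKBIA and 405 bp in TNFAIP3. At all 7 the domain also reached farther downstream than upstream. The downstream reach ran from 2426 bp in CXCL1 to 7701 bp in TNFAIP3, and the upstream reach from 996 bp in CXCL8 to 4209 bp in IL1B. The knockout peaks nearest the start sites of CSF2 and NFKBIA had their summits in the same range, 360 and 297 bp downstream.

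The number of peaks within 100 kb of the start site varied among the 8 genes, from 0 to 8 in knockout and from 4 to 11 in control cells. Around IL6 the knockout list had 5 peaks with 3804 tags and the control list 8 peaks with 1865 tags. Around CXCL8 there was 1 knockout peak with 41 tags, against 6 control peaks with 824 tags. Around CXCL1 there were 0 knockout peaks and 4 control peaks with 838 tags. The 100 kb stretches of the chemokine genes overlap and share part of their length, and these genes had the fewest knockout peaks of the 8. Around IL1B there were 3 knockout peaks with 1085 tags and 11 control peaks with 5292 tags. Around TNFAIP3 there were 3 knockout peaks with 2216 tags and 4 control peaks with 1681 tags. LIF, NFKBIA and CSF2 had 8, 5 and 2 knockout peaks and 10, 9 and 4 control peaks. The median over all control summits was 3 knockout peaks within 100 kb.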

How the data were processed

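H3K4me3 ChIP-seq was carried out by the authors in MDA-MB-231 cells, control or with ARID1A knocked out. Libraries were grouped by title. The work was done on chromatin digested with micrococcal nuclease, per the labels' protocols. Bowtie2 2.2.4 and MACS 1.4.3 were used with hg19, per the submitters' processing notes. Per the file headers, MACS compared each IP with its own input at a p cutoff of 0.0001, after adapter trimming, and scaled the larger data set to the smaller. Deposited tag counts are raw IP tags per peak. The deposited score is the MACS p on a scale of −log10, multiplied by 10. The deposited fold column divides IP tags by a local input background, a ratio, and the deposited false discovery rate is a percent. These 3 measures were compared only within a list. Summits were taken as the peak start plus the deposited offset.

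All peaks of both lists were used. Start sites were those given with the gene list, and strands came from RefSeq (GRCh38.p14). Tags have exact Poisson and shares exact Clopper-Pearson 95% intervals. The log2 ratios of knockout over control tags used a pseudocount of 1, were centred on the median of the pairs or domains named, and have binomial intervals. The ratio step was tried on simulated pairs of 1 knockout and 1 control peak with Poisson counting error alone. That does not cover sums over several peaks or spread beyond counting error. Every gene of the list is named, and no p-value is given, since each genotype has 1 IP library. The genes and lists were chosen with earlier results of these data known. Other pathway genes and cell markers were not analysed here, for want of hg19 start sites. The software was scipy 1.17.1, pandas 2.3.3 and numpy 2.4.6 under Python 3.11.15, and matplotlib 3.10.9 for figures.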

Additional observations from a re-analysis of the deposited data

How the results depend on the processing

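The count of 2 genes with a knockout peak was unchanged with a window of 1 kb, a score of 100 or more, an FDR of 1% or less, a fold enrichment of 10 or more, lists of equal length, summits inside the window, only knockout peaks wider than 300 bp, and LIF left out. It was 5 with windows of 5 kb and of 10 kb, and 4 with knockout peaks anywhere in the control domain. The count of 8 genes with a control peak was 7 with a window of 1 kb, with summits inside the window and with LIF left out, and 8 under the other settings. The CSF2 ratio, 1.69 as reported, was 2.28 after scaling by total IP tags and 0.15 per kb of peak width. The NFKBIA ratio, 0.77 as reported, was 1.36 after scaling by total IP tags, 1.23 with a window of 5 kb, 1.10 over the control domain, -0.56 with the nearest knockout peak alone and -0.68 per kb. The cause of these shifts was not tested, other than that wider windows hold more peaks by construction. NFKBIA had 769 knockout tags in the nearest peak alone and 2663 within 5 kb, and the other 9 tag counts were the same under both. The settings over the control domain, with the nearest peak for the ratio, without 300 bp peaks and without LIF were chosen after seeing the data. No paired analysis was possible because each genotype has 1 IP library. An unlisted peak gives no upper limit for the tags there, since the lists hold only peaks past the cutoff.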
